A study of Mus musculus with 16 samples.

Results

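The comparison described here is that of adult second-hand smoke (SHS) with adult filtered air in mice that had all been exposed to SHS before birth. It takes the 4 arrays of the group SS (SHS in utero and as an adult) and the 4 arrays of the group SA (SHS in utero, filtered air as an adult), 8 of the 16 arrays of the series, over 18193 genes. The other 8 arrays belong to the groups AA (filtered air at both times) and AS (filtered air in utero, SHS as an adult) and are used for the common estimate of the spread and as a reference for levels. All animals were male Balb/c mice, and the left lung was taken at 15 weeks of age. The SHS was sidestream smoke with 10 mg of particles per m3 of air, given 5 hours daily throughout the week, and the control animals breathed filtered air. Total RNA from each lung was hybridised to an Affymetrix mouse array, and the values are on the log2 scale, where a difference of 1 is a 2-fold change.

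SS replicates 1 and 2 differed from each other by a root mean square of 0.0721 over the most variable bright probe sets, 1.24 times that over the least variable ones. AS replicates 3 and 4 gave a ratio of 1.349 by the same measure, against 2.841 to 5.962 in the other 22 pairs of arrays within groups. Both pairs thus lay much closer together than any other arrays of a group, and each was counted as 1 sample, by its mean, so SS holds 3 samples, SA 4, AA 4 and AS 3. SS values are given below in the order of averaged replicates 1 and 2, replicate 3 and replicate 4, and SA values in the order of replicates 1 to 4. The labels name no litter, hour of collection or hybridisation batch, so the part of these in any difference was not tested. Array medians ran from 6.9 to 6.93.

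Tobacco smoke carries polycyclic hydrocarbons, which bind the aryl hydrocarbon receptor (AhR) and induce the cytochrome P450 enzymes that oxidise them. Glucocorticoids, the adrenal stress hormones, act in lung through a nuclear receptor that binds DNA and induces feedback genes such as Fkbp5, Tsc22d3 and Per1. The circadian clock of lung cells is a loop in which Clock or Npas2 pairs with Arntl (Bmal1) to switch on the Per and Cry repressors through E-box sequences, and glucocorticoids also act on Per1 directly. These 3 systems share target genes, so the lists below overlap.

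Adult SHS after SHS in utero was accompanied by large rises in stress hormone, clock and some AhR genes. Falls were seen in some developmental transcription factors, the chemokine receptor Cxcr4 and interferon-induced GTPases. Of 45037 probe sets, 737 passed an adjusted p of 0.05 (limma, Benjamini-Hochberg over all probe sets), which is 1.64% of those tested. Read at the probe set with the highest mean signal of each gene, 348 of 18193 genes passed (1.91%), 159 of them higher in SS (0.874%) and 189 lower (1.04%). These shares are the reference for every count of list members given below. The rises were the larger changes: 25 genes rose at least 2-fold and 8 fell at least 2-fold. The median change was 0.57 among the genes called higher and -0.48 among those called lower, against -0.007 over all genes.

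All 159 genes called higher and 188 of the 189 called lower had no overlap between the SA and SS sample values. Over all genes, 3438 (18.9%) had no overlap. The largest rises and falls named below were picked among called genes without overlap. Their lack of overlap thus follows from that choice. Among the 196 called genes with more than 1 probe set, 77 had at least 2 probe sets called in the same direction. Where no number of probe sets is given below, some of a gene may not have passed. Mt1, Csrnp1, Mpp3, Cebpd, Stc1, Tcf21, Meox2, Angpt2, Sesn2 and Ifi209 were called at 1 of 2 probe sets. Meis1 was called at 1 of 3 and Fkbp5 at 2 of 3. A further 38 genes were called higher and 76 lower only at a dimmer probe set, and these are not counted as changed here. Leaving out SS replicate 3 lowered the number of genes called to 76, of which 75 were among the 348. It was 148 when SS replicates 1 and 2 were dropped and 189 for SS replicate 4, and dropping SA replicates 2 and 3 in turn gave 190 and 175. Treating each of the 16 arrays as its own sample gave 629.

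**Figure D1:**
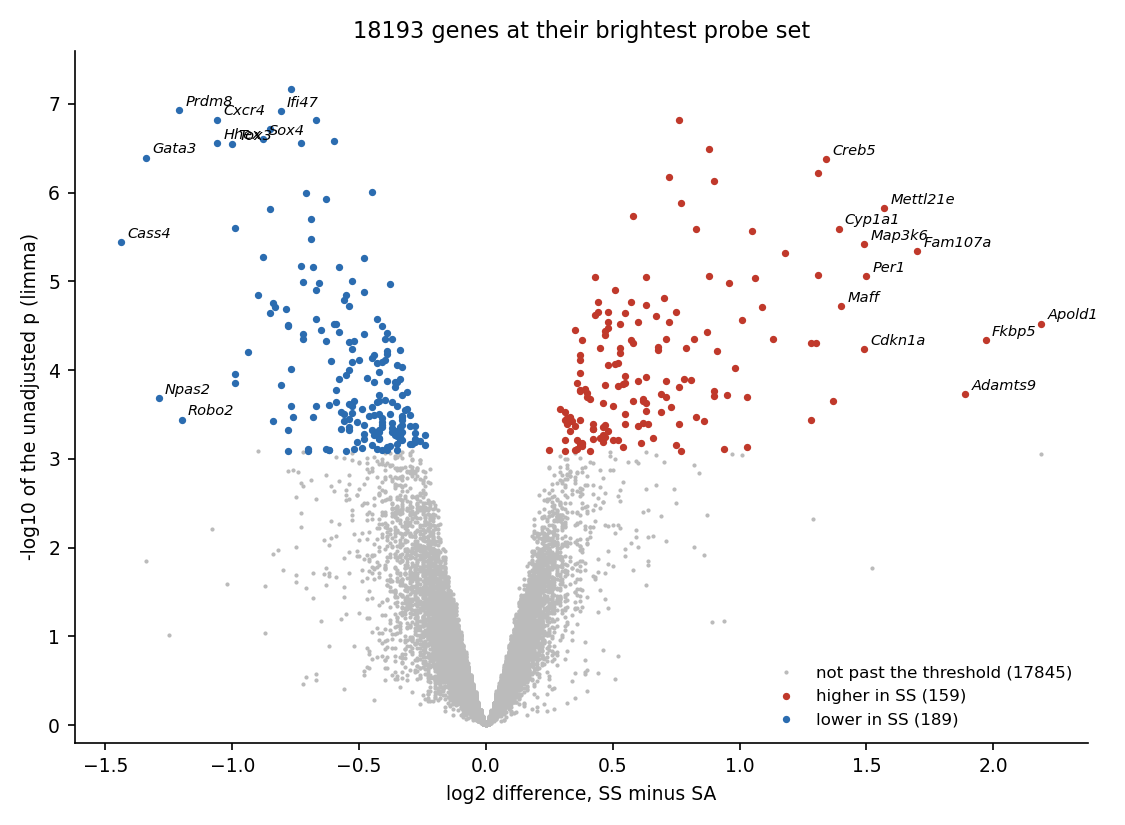
The log2 difference SS minus SA (x axis) against -log10 of the unadjusted limma p (y axis) for 18193 genes at their brightest probe set. The 159 genes called higher reach a difference of 2.19 and the 189 called lower reach -1.44.

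The group with the most changed members was that of glucocorticoid-induced genes. Of its 24 genes, 16 rose and 0 fell, against 0.874% of all genes called higher and 1.04% called lower. The median difference was 0.94, against -0.007 over all genes. The list mean, relative to the SA mean, was 0.93, 1.07 and 0.89 in the 3 SS samples and 0.23, -0.32, -0.17 and 0.26 in the 4 SA samples, so the groups did not overlap, and SA replicates 2 and 3 were below SA replicates 1 and 4. In the AA samples it ran from 0.09 to 0.47 and in the AS samples from 0.51 to 0.81. The lists were chosen with earlier results of these data known, so their counts are descriptions.

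Fkbp5, a co-chaperone that lowers the hormone affinity of the glucocorticoid receptor, had log2 values of 8.69, 7.78, 7.81 and 8.94 in SA and 10.04, 10.25 and 10.53 in SS. The lowest SS sample lay above the highest SA sample, and the gene rose by 1.97 ± 0.35 (standard error), a 3.91-fold change (limma, adjusted p = 0.01, n = 3 and 4). Fam107a, an actin-binding stress response gene, had 9.27, 8.21, 8.45 and 9.09 in SA and 10.22, 10.61 and 10.53 in SS. It rose by 1.70 ± 0.24 or 3.25-fold (limma, adjusted p = 0.00312), at all 3 of its probe sets. For comparison, the AA and AS means were 8.43 and 8.69 for Fkbp5 and 9.25 and 9.23 for Fam107a, so both SS means of 10.27 and 10.46 lay above those of every other group.

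Tsc22d3 (GILZ), an anti-inflammatory mediator of glucocorticoids, stood at 12.69 in each of the 3 SS samples and at 12.01, 11.16, 11.21 and 11.66 in SA. The rise was 1.18 ± 0.17 or 2.26-fold (limma, adjusted p = 0.00318), at 2 of 4 probe sets. Map3k6, a kinase of stress-activated MAP kinase cascades, had 7.78, 6.85, 7.53 and 7.75 in SA and 9.02, 9.0 and 8.89 in SS, a rise of 1.49 ± 0.21. The spread among the SS samples was small in both genes, and most of the spread within groups came from SA. Cdkn1a (p21), which halts the cell cycle, rose by 1.49 ± 0.27, and Ddit4, an inhibitor of the growth kinase mTORC1, by 1.30 ± 0.23. Errfi1, a feedback inhibitor of the EGF receptor, rose by 1.28 ± 0.23 from an SA mean of 11.81 to an SS mean of 13.09, while the AA mean was 12.54 and the AS mean 13.55.

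Both metallothioneins, which bind zinc and cadmium, rose, Mt2 by 1.37 ± 0.28 and Mt1 by 1.01 ± 0.17. In Mt2 the SA samples had 8.56, 8.5, 8.83 and 9.69 and the SS samples 10.14, 10.4 and 10.26, so SA replicate 4 stood apart from the other SA samples. The smaller rises were in the transcription factors Klf15 (0.95), Cebpd (0.77) and Klf9 (0.70, at 3 of 7 probe sets), in Pdk4 (0.94), which restrains the use of glucose, in glutamine synthetase Glul (0.48) and in the NF-kB inhibitor Nfkbia (0.44, at 4 of 5 probe sets). Zbtb16, a zinc finger repressor, had the largest difference of the list, 2.19 ± 0.53, and did not pass (adjusted p = 0.0521): SA had 9.83, 8.75, 9.54 and 11.16 and SS had 11.92, 11.87 and 12.22. Angptl4, an inhibitor of lipoprotein lipase, had 0.87 ± 0.26 and did not pass either. Dusp1, a phosphatase of MAP kinases that glucocorticoids also induce, had -0.03 ± 0.14 in SS minus SA and 0.73 in AS minus AA.

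The count of 16 depended on single samples. Leaving out SS replicate 3 brought it to 5 and leaving out SS replicates 1 and 2 brought it to 10. It was 12 when SA replicate 2, SA replicate 3 or SS replicate 4 was dropped, while the list median stayed between 0.86 and 1.06. Fkbp5 lost its call without SS replicate 3 (adjusted p = 0.0575), as did Ddit4 (0.0782) and Mt1 (0.0575). Cdkn1a and Errfi1 lost theirs without SS replicate 3 or without SS replicates 1 and 2 (adjusted p up to 0.0818 and 0.0813). Mt2 lost it without any 1 of the SS samples or of SA replicates 1 to 3 (adjusted p up to 0.136). The glucocorticoid receptor, its chaperones and the enzymes that convert corticosterone had 0 of 9 genes called, and the receptor Nr3c1 itself had -0.06 ± 0.11.

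**Figure D2:**
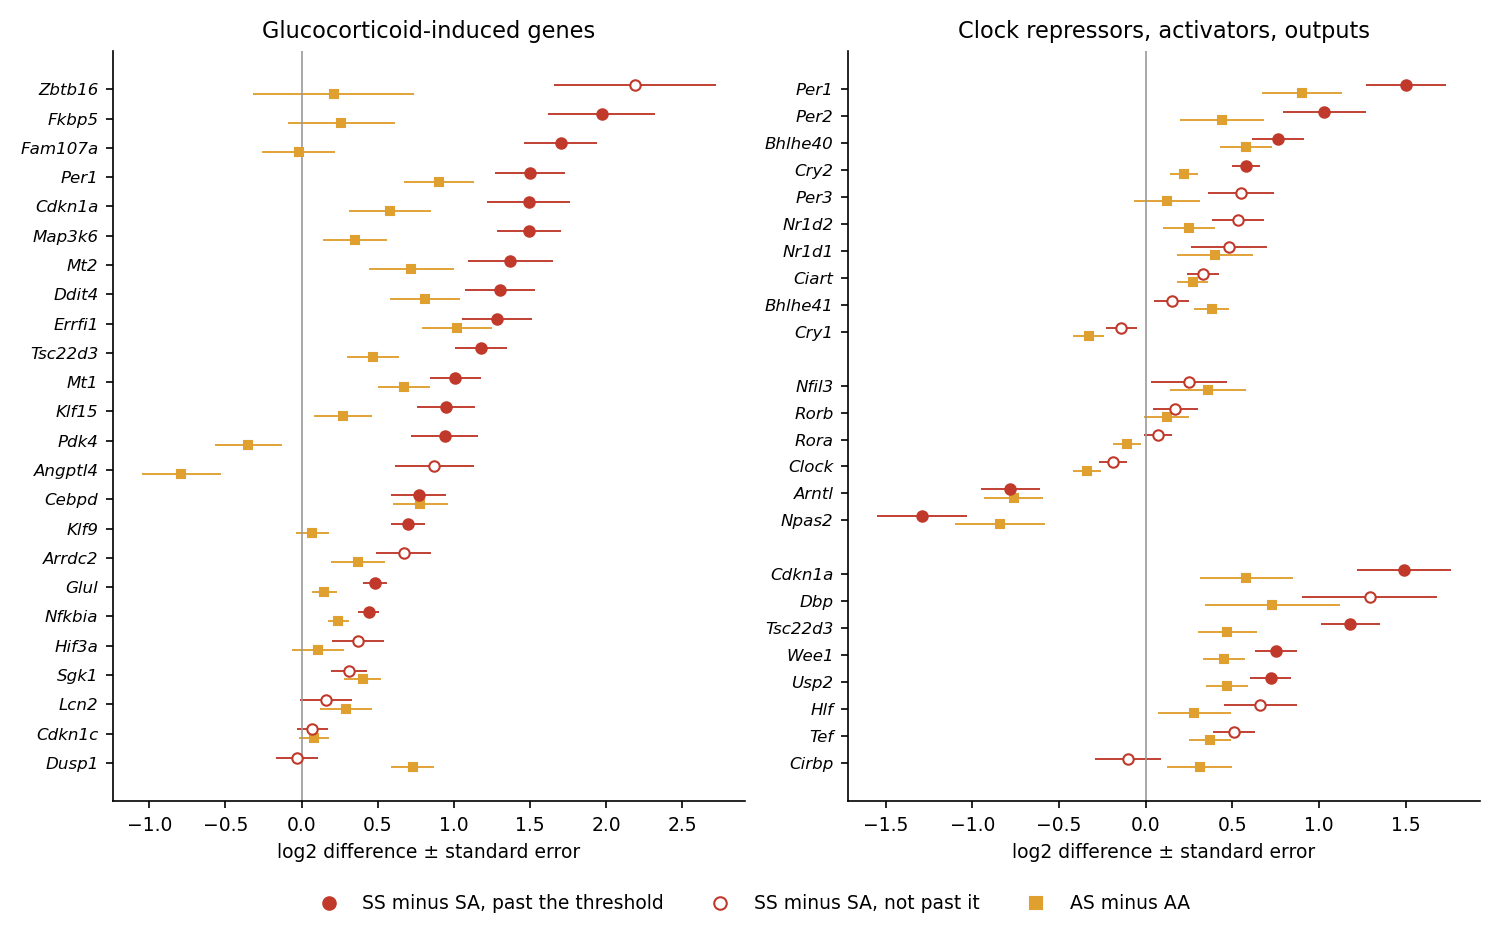
Log2 differences with standard errors of 24 glucocorticoid-induced genes (left) and of clock repressors, activators and outputs from top to bottom (right), for SS minus SA (circles, filled where the adjusted p is under 0.05) and AS minus AA (squares). Of the glucocorticoid-induced genes 23 lie above 0 in SS minus SA, and Npas2 and Arntl lie below 0 in both.

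Promoter sequences of 4 of these genes are shown because they hold the letters of the hormone element or of the clock element next to genes that rose together. They are the 250 bases before a RefSeq transcript start on the build GRCm38.p6, written along the strand of the gene, with capitals for the glucocorticoid element core ACANNNTGT in Fam107a and Map3k6 and for the E-box CACGTG in Per1 and Klf15.
Fam107a, chr14:8309780-8310029 (- strand): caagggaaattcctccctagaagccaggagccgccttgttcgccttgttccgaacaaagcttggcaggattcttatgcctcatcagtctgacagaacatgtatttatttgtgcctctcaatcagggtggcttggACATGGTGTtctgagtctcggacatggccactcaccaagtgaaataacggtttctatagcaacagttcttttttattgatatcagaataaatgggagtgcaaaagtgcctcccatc
Map3k6, chr4:133240568-133240817 (+ strand): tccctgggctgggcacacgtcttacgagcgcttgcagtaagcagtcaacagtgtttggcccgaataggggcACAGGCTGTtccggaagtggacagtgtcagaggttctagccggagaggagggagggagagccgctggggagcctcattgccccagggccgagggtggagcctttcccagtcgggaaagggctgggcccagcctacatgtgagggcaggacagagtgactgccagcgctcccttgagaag
Per1, chr11:69098699-69098948 (+ strand): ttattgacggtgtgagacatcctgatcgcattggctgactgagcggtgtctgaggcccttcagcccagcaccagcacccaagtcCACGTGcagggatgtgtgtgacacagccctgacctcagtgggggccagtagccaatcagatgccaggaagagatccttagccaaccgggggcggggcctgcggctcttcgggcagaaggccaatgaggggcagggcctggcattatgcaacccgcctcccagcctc
Klf15, chr6:90462326-90462575 (+ strand): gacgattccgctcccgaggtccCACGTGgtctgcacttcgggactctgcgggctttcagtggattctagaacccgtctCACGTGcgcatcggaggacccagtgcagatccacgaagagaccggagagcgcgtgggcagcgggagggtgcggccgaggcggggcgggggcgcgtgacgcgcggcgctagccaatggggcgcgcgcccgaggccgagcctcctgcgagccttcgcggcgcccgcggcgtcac

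The element in Fam107a starts 116 bases before the transcript start and that in Map3k6 179 bases before it. The search covered these 250 bases and the 50 after the start, 300 bases in all. Over the whole table, 2249 of 32851 such windows held the core on either strand (6.85%), against 8 of 32 windows of the glucocorticoid-induced list (25%). Those windows belong to Fam107a, with 2 starts that lie 2 bases apart, to Sgk1, with 2 separate starts, and to Glul, Lcn2, Map3k6 and Mt1. Of these genes, Lcn2 and Sgk1 did not pass the test in SS minus SA. Other starts of Fam107a and Sgk1 held no core. The E-box in Per1 starts 166 bases before the start shown, and the window of another Per1 start held none. Those shown in Klf15 start 228 and 172 bases before, and its full 300-base window held 3. E-boxes were in 4 of 9 windows of the clock repressors (44.4%) and in 7.15% of all windows, and of those 4 only Per1 is a gene that rose. No window of Per2 or Bhlhe40, which also rose, was available to the search. A match of letters is a description of the window and shows no binding.

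Among clock genes, 4 of 10 repressors and 4 of 8 outputs rose and 2 of 6 genes of the activator list fell. Over all genes 0.874% were called higher and 1.04% lower. No repressor fell, with a median of 0.54. Per1 had 9.41, 8.13, 8.55 and 8.77 in SA and 10.18, 10.46 and 10.0 in SS, and rose by 1.5 ± 0.23 or 2.82-fold (limma, adjusted p = 0.0044). The lowest SS value was above the highest SA value, and the AA and AS means were 9.61 and 10.51. Per2 rose by 1.03 ± 0.24, at all 3 of its probe sets, Bhlhe40 by 0.76 ± 0.15 and Cry2 by 0.58 ± 0.08. Per3 (0.55) and the nuclear receptor Nr1d2 (0.53) did not pass, and Cry1 had -0.14.

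Npas2, which pairs with Arntl to drive the clock, had 7.93, 7.32, 6.99 and 7.2 in SA and 6.36, 6.32 and 5.52 in SS. It fell by 1.29 ± 0.26 on the log2 scale to 0.408 of the SA level (limma, adjusted p = 0.0235), with no overlap, at 1 of 2 probe sets. Arntl had 9.19, 8.98, 9.12 and 8.92 in SA and 8.49, 8.5 and 7.82 in SS, a difference of -0.78 ± 0.17, called at 1 of 2 probe sets. SS replicate 4 was the lowest of the SS samples in both genes. The other 4 genes of the activator list (Clock, Rora, Rorb and Nfil3) did not pass, and of these Nfil3 is itself a repressor. The median of all 6 was -0.06, with 3 differences above 0.

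No clock output gene fell, and the median of the 8 was 0.73. Besides Cdkn1a and Tsc22d3, which the glucocorticoid list also holds, these were Wee1, a kinase that delays mitosis (0.75 ± 0.12), and the deubiquitinase Usp2 (0.72 ± 0.12). Usp2 had 8.29, 8.3, 8.41 and 8.14 in SA and 8.95, 9.08 and 9.0 in SS, a gap larger than the spread of either group. The output factor Dbp had 1.29 ± 0.39 and did not pass, with SA values of 8.3, 9.11, 9.71 and 8.48 and SS values of 9.66, 9.95 and 10.97 that overlapped. Noct (nocturnin), a gene with a daily rhythm in many tissues, rose by 1.13 ± 0.20, from 8.54, 8.45, 8.61 and 8.91 in SA to 9.7, 9.87 and 9.71 in SS, and lost its call without SS replicate 3 (limma, adjusted p = 0.0709).

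Each SA or SS sample that was left out lowered the count of repressors called from 4 to 2 or 3, and Per2 lost its call without any of the 7 SA and SS samples (adjusted p up to 0.185). Per1 kept its call in all 27 alternatives run. The 2 activator calls fell to 0 without SA replicate 1, SA replicate 2, SS replicate 3 or SS replicate 4 and to 1 without SA replicate 3 or SS replicates 1 and 2. The 4 output calls fell to 1 without SS replicate 3. No hour of collection is given, so a difference in hour between the groups cannot be told apart from the exposure in these genes.

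Some AhR targets rose, and none was called lower. Cyp1a1, the P450 enzyme that oxidises smoke hydrocarbons, had 8.69, 8.39, 8.32 and 8.5 in SA and 9.61, 10.12 and 9.85 in SS. The groups were separated by more than the spread of either, and the gene rose by 1.39 ± 0.19 or 2.61-fold (limma, adjusted p = 0.00201), in all 27 alternatives. In mice kept in air in utero its means were 8.34 in AA and 8.85 in AS, a difference of 0.51, and the difference between the 2 adult effects was 0.87 ± 0.27 (limma, adjusted p = 0.266), so it was not shown that they differ. Cyp1b1 rose by 0.67 ± 0.11, from 7.74, 7.42, 7.47 and 7.7 in SA to 8.14, 8.35 and 8.28 in SS, and Tiparp, which represses AhR, by 0.53 ± 0.10.

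The receptor gene Ahr itself fell by 0.55 ± 0.11 (limma, adjusted p = 0.0161), at 1 of 2 probe sets, from 12.03, 12.55, 12.33 and 12.15 in SA to 11.65, 11.74 and 11.75 in SS. Its call was lost when SA replicate 3, SS replicates 1 and 2 or SS replicate 3 was left out, since the list then had 0 lower members. In all, 3 of 9 genes of the list were higher and 1 lower, against 0.874% and 1.04% of all genes, and the median was 0.02. Aldh3a1 (0.04), the repressor Ahrr (0.02), Cyp1a2 (-0.04) and Nqo1 (-0.13) did not pass. Only 1 member was higher without SS replicate 3, and 2 were when SS replicates 1 and 2 were dropped.

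NRF2 antioxidant genes had 1 of 16 members higher and a median of 0.07. That gene was Gclc, the rate-limiting enzyme of glutathione synthesis, which rose by 0.47 ± 0.10, from 11.24, 11.17, 11.32 and 11.38 to 11.76, 11.79 and 11.7. It was called at 1 of 2 probe sets. The heme oxygenase Hmox1 had 0.52 ± 0.16 and overlapping groups, and sulfiredoxin Srxn1 had 0.37 ± 0.11, and neither passed. The list had 0 calls when any 1 SS sample or any of SA replicates 1 to 3 was left out, and 2 without SA replicate 4. Other enzymes that handle foreign compounds in lung had 0 of 17 called and a median of 0.02.

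Immediate early genes respond within minutes to many stimuli. Of 25 members 2 were higher and 1 lower, against 0.874% and 1.04% of all genes, with a median of 0.16. In AS minus AA the median of the same genes was 1.01. Maff, a small partner of stress transcription factors, had 8.01, 7.8, 7.95 and 8.41 in SA and 9.48, 9.6 and 9.23 in SS, a rise of 1.40 ± 0.23. Csrnp1, a nuclear protein, rose by 1.03 ± 0.21, with SS values of 9.83, 10.19 and 9.1 above the SA range of 8.57 to 8.86. Ier3, an immediate early gene linked to cell survival, went the other way, from 11.86, 12.04, 12.07 and 11.72 to 11.31, 11.06 and 11.52, a fall of 0.62 on the log2 scale. Fos had 11.64, 11.92, 10.61 and 11.03 in SA and 10.97, 11.84 and 10.69 in SS, groups that overlapped fully (-0.13 ± 0.44).

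SS replicate 4 had a list mean of -0.02, within the SA range of -0.06 to 0.12, and the other SS samples had 0.42 and 0.48. The immediate early count was 0 without SS replicate 3. Maff lost its call only there (adjusted p = 0.0509), and Csrnp1 lost it also without SS replicates 1 and 2, SA replicate 2 or SA replicate 3 (adjusted p up to 0.149). Of the fits that left out 1 SA or SS sample, Ier3 passed only in the fit without SA replicate 4.

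The cAMP and adrenergic list had 4 of 13 members higher and 1 lower, against 0.874% and 1.04% of all genes. Creb5, a transcription factor of the CREB family, had 7.18, 7.06, 7.14 and 7.56 in SA and 8.27, 8.51 and 8.93 in SS. It rose by 1.34 ± 0.16 or 2.53-fold (limma, adjusted p = 0.000852), with no overlap, at 3 of 4 probe sets. Rasd1, a Ras-like protein first found as dexamethasone-induced, rose by 1.09 ± 0.18, the phosphodiesterase Pde4b by 0.78 ± 0.15 at 1 of 6 probe sets, and the cAMP response modulator Crem by 0.64 ± 0.14 at 1 of 4. The vasopressin receptor Avpr1a fell by 0.45 on the log2 scale, from 6.29, 6.28, 6.22 and 6.14 to 5.76, 5.8 and 5.8. These levels were dim, below the array medians of 6.9 to 6.93. The higher count was 2 without SA replicate 3, SS replicate 3 or SS replicate 4, and Avpr1a lost its call without SS replicate 3 or SS replicates 1 and 2.

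Several of the largest rises belong to no single pathway. Apold1, an early response gene of endothelium, had 6.63, 6.72, 6.68 and 6.63 in SA and 8.62, 9.97 and 7.98 in SS. The SA samples were almost equal and the SS samples were far apart, all above SA, and the rise of 2.19 ± 0.37 was 4.57-fold (limma, adjusted p = 0.00841). The AA mean was 6.93 and the AS mean 10.11. Adamts9, a secreted protease that cleaves proteoglycans, had 10.1, 10.08, 9.81 and 9.95 in SA and 12.19, 12.37 and 11.06 in SS. It rose by 1.89 ± 0.38, at 1 of 3 probe sets, and lost its call without SA replicate 2, SA replicate 3, SS replicate 3 or SS replicates 1 and 2 (adjusted p up to 0.149). Mettl21e, a methyltransferase-like gene, rose by 1.57 ± 0.2 from 5.92, 5.2, 5.71 and 6.07 to 7.16, 7.24 and 7.47, with no overlap. Its SA values were dim, below the array medians of 6.9 to 6.93.

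F3, tissue factor, the trigger of coagulation, had 10.5, 10.25, 10.2 and 10.4 in SA and 11.22, 11.46 and 11.5 in SS, a rise of 1.06 ± 0.16. Plaur, the urokinase receptor, rose by 0.69 ± 0.15, and these were the 2 of 13 coagulation and fibrinolysis genes called, with a median of 0.05. Over all genes 0.874% were called higher. Retnla (FIZZ1), a secreted marker of type 2 responses, had 9.34, 9.24, 9.56 and 9.69 in SA and 10.85, 10.28 and 10.39 in SS, and rose by 1.05 ± 0.14. It was the only 1 of 20 type 2 genes called, and Il4, Il5, Il13 and Arg1 had 0.25, 0.16, 0.10 and -0.17. Rgcc, a regulator of the cell cycle, rose by 1.31 ± 0.20, the membrane scaffold Mpp3 by 1.31 ± 0.16, and Tent5b, a nucleotidyltransferase, by 1.28 ± 0.28. Tent5b lost its call without SA replicate 2, SA replicate 3 or any SS sample (adjusted p up to 0.151), and Plaur was lost with some of the same samples, since the coagulation count was 1 without SA replicate 2, SA replicate 3, SS replicate 3 or SS replicates 1 and 2.

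Among metabolic and stress lists, 3 of 19 hypoxia and glycolysis genes rose, against 0.874% of all genes, with a median of 0.12. These were Pfkfb3, which speeds glycolysis (0.88 ± 0.10), hexokinase Hk2 (0.82 ± 0.14) and the hormone stanniocalcin Stc1 (0.79 ± 0.14). Pfkfb3 had 9.83, 9.57, 9.58 and 9.5 in SA and 10.33, 10.53 and 10.62 in SS, while Vegfa, Slc2a1, Ldha and Hif1a, typical targets and the factor itself, had -0.08, 0.12, 0.12 and 0.03. Without SS replicate 3 only 1 of the list was called. Of 13 p53 targets Cdkn1a, Trp53inp1 (0.51) and Sesn2 (0.46) rose, and Mdm2, Ccng1 and Zmat3 had 0.03, -0.04 and -0.03. Dropping SS replicate 3 left 0 of them called, and it was 1 without either other SS sample and 2 without SA replicate 2, 3 or 4.

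**Figure D3:**
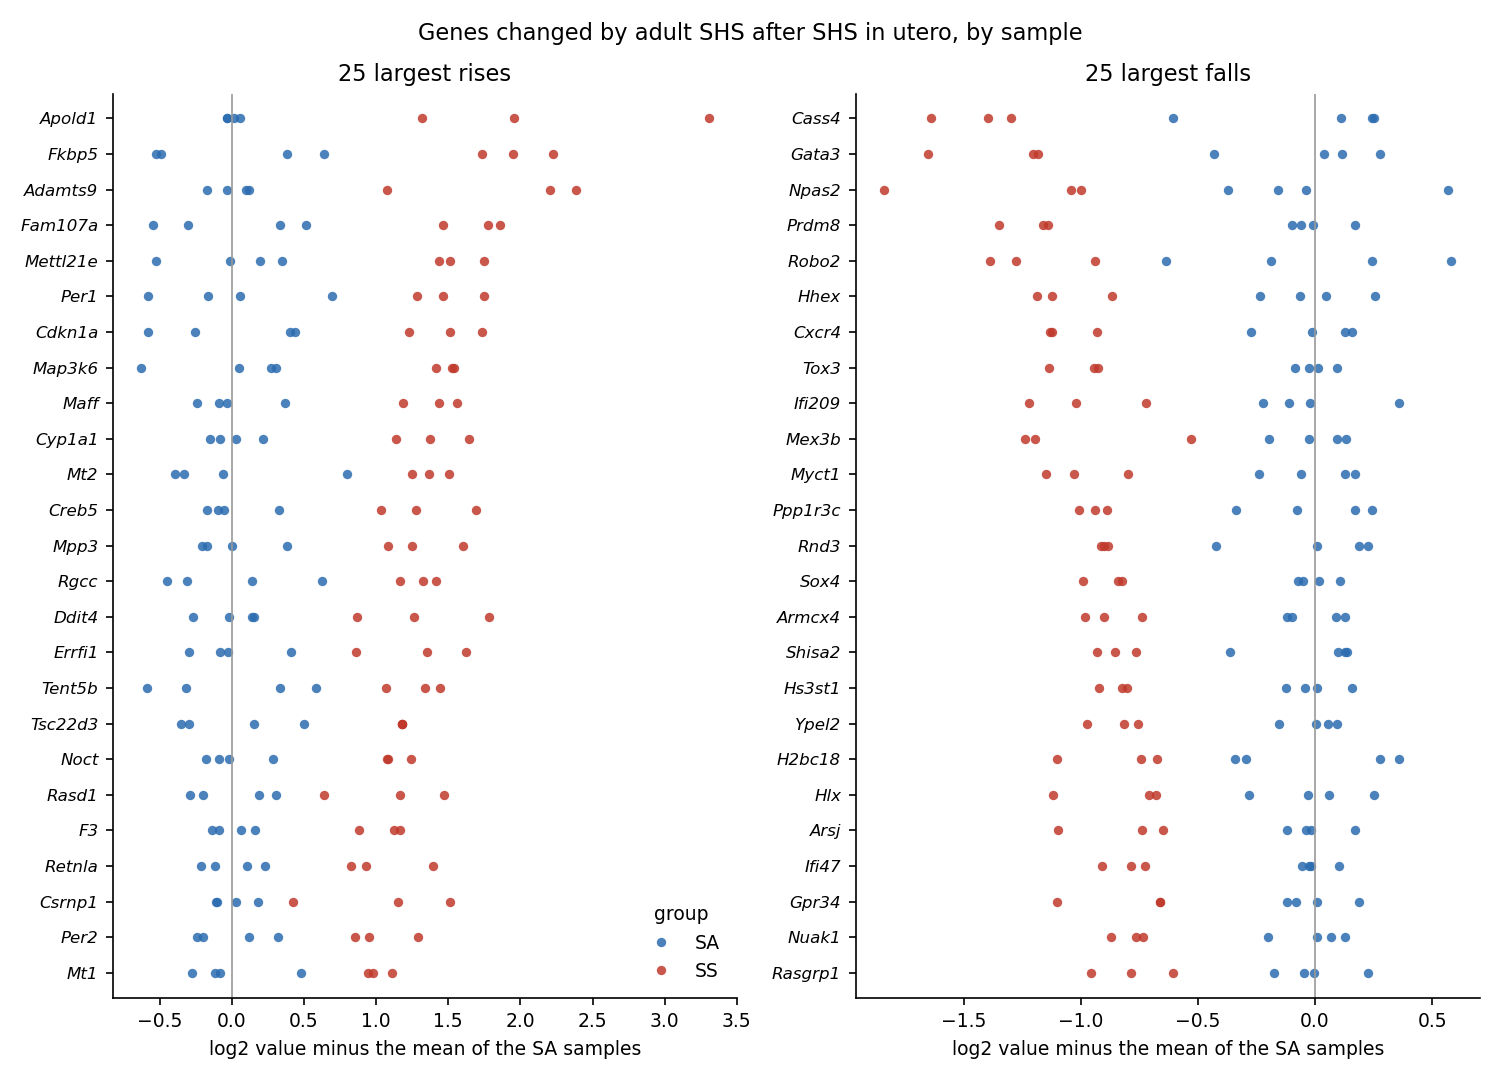
Log2 values minus the mean of the SA samples for the 25 largest rises (left) and the 25 largest falls (right), 1 point per sample, 4 SA and 3 SS. Genes were chosen for no overlap between SA and SS, so no SS point overlaps the SA points of its gene. Apold1 and Csrnp1 show the wide spread of the SS samples.

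The falls began with regulators of cell identity. Of 33 lung transcription factors 7 fell and 0 rose, against 1.04% of all genes called lower, and the median was -0.15. The list was chosen with earlier results of these data known. Gata3, a factor of type 2 lymphocytes and of some epithelia, had 6.93, 7.4, 7.48 and 7.64 in SA and 6.18, 5.71 and 6.16 in SS. Every SS sample lay below every SA sample, and the fall was to 0.394 of the SA level, -1.34 ± 0.16 on the log2 scale (limma, adjusted p = 0.000852). The AA mean was 6.83 and the AS mean 6.65. Prdm8, a zinc finger repressor, had 7.08, 7.35, 7.12 and 7.17 in SA and 6.02, 6.04 and 5.83 in SS (-1.21 ± 0.13, adjusted p = 0.000753 by limma). The SS values of Gata3 and Prdm8 were dim, below the array medians of 6.9 to 6.93.

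Hhex, a homeobox factor of endothelium and of blood cells, had 9.31, 9.8, 9.59 and 9.48 in SA and 8.42, 8.36 and 8.68 in SS (-1.06 ± 0.12). Tox3, a factor of secretory and ciliated airway cells among others, had 9.93, 10.05, 9.97 and 9.87 against 9.01, 9.03 and 8.82 (-1.0 ± 0.11). The groups did not overlap in either gene, and the samples of each group lay closer together in Tox3 than in Hhex. Smaller falls were in Meis1 (-0.48), Foxa2 (-0.44), an endoderm factor of the airways, and Tcf21 (-0.43), a factor of lung fibroblasts, while Nkx2-1, Foxj1, Sox2 and Sox9, which mark lung epithelium, ciliated cells, proximal airway and distal tips, had -0.04, -0.03, -0.16 and 0.16. The count was 5 without SS replicate 3 and 6 to 8 without each of the others.

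Outside that list, Sox4 fell by 0.88 ± 0.10 on the log2 scale, at 5 of 8 probe sets, from 12.41, 12.59, 12.5 and 12.43 to 11.64, 11.49 and 11.66. The homeobox gene Hlx fell by 0.84 ± 0.13, and the Slit receptor Robo2 by 1.2 ± 0.26 with wide groups (5.75, 6.97, 6.63 and 6.2 in SA, and 5.45, 5.0 and 5.11 in SS). Robo2 lost its call without SA replicate 2, SA replicate 3 or any SS sample (adjusted p up to 0.174). Its SS values were dim, below the array medians of 6.9 to 6.93. Cass4, a scaffold protein of focal adhesions, had the largest fall, 1.44 ± 0.20 on the log2 scale, from 8.22, 9.08, 9.07 and 8.94 to 7.53, 7.43 and 7.19. Myct1, a gene of endothelium, fell by 0.99 ± 0.13 at 3 of 4 probe sets, and Aplnr, the apelin receptor of capillaries, by 0.60 ± 0.07 at both of its probe sets. With Angpt2 (-0.30) and the rise in Apold1, 1 of 18 angiogenic genes rose and 2 fell, and the lower count was 1 without SA replicate 2, SA replicate 3 or any SS sample.

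Cxcr4, the receptor for the chemokine CXCL12 on leukocytes and endothelium, had 10.57, 10.97, 10.83 and 11 in SA and 9.71, 9.72 and 9.91 in SS. It fell to 0.478 of the SA level, -1.06 ± 0.11 on the log2 scale (limma, adjusted p = 0.000753), with no overlap and in all 27 alternatives. It was the only 1 of 16 chemokine receptors called. Ccr2, the receptor of inflammatory monocytes, had -0.78 ± 0.20 and did not pass (adjusted p = 0.0669), with 9.12, 9.17, 8.86 and 8.86 in SA and 8.17, 8.22 and 8.27 in SS. Cxcr5, a receptor of B cells and follicular helper T cells, had -0.68 ± 0.26. In bulk lung RNA, fewer cells of a type and less RNA per cell cannot be told apart.

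Markers of B and plasma cells and of NK cells had no member past the threshold. In the B and plasma cell list 0 of 14 genes were called, unadjusted p-values were under 0.05 in 9, against 2819 of 18193 genes (15.5%), and all 14 differences were below 0, with a median of -0.62. Ms4a1 (CD20) had 9.14, 9.59, 9.07 and 8.8 in SA and 8.17, 7.67 and 8.35 in SS (-1.08 ± 0.34, limma, adjusted p = 0.143). The list means, relative to the SA mean, were -0.40, -0.89 and -0.44 in SS, -0.22 to 0.26 in SA and -0.30 to 0.51 in AA, so SS lay below every SA and AA sample, SS replicate 3 the lowest. The median was -0.41 without that replicate, and 1 member was called without SS replicates 1 and 2. In the NK cell list 0 of 11 were called and the median was -0.36, and Ncr1, a receptor of NK cells, had -0.73 ± 0.19 (adjusted p = 0.0788 by limma). Its differences were below 0 in 9 genes and above 0 in 2. NK list means were -0.25, -0.25 and -0.48 in SS, -0.19 to 0.10 in SA, -0.27 to 0.19 in AA and -0.23 to 0.31 in AS, so SS overlapped AA. The part of these cell types in the falls of Cxcr4, Gata3 and Rasgrp1 was not tested.

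The interferon-induced GTPases, which attack the vacuoles of intracellular microbes, were lower together. Of 9 genes 4 fell and 0 rose, against 1.04% of all genes called lower. All 9 had no overlap between groups, against 18.9% of all genes, and the median was -0.33. Iigp1 had 9.68, 9.62, 9.56 and 10.16 in SA and 8.82, 8.98 and 9.16 in SS (-0.77 ± 0.16), and Gbp8 had 8.19, 8.13, 8.25 and 7.86 against 7.46, 7.44 and 7.62 (-0.60 ± 0.10). Igtp (-0.42) and Gbp6 (-0.37) also fell, and Gbp3 and Irgm1 had -0.33 and -0.31 and did not pass. Ifi47, another GTPase of this kind that was not in the list, fell by 0.81 ± 0.09 on the log2 scale, from 10.69, 10.72, 10.73 and 10.85 to 9.96, 9.84 and 10.02 (limma, adjusted p = 0.000753). These genes belong to families of similar sequence, so a probe set may read more than 1 of them.

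In AS minus AA the median of the GTPase list was -0.39. Type I interferon-stimulated genes such as Ifit1 (-0.19) and Mx1 (-0.20) had 0 of 17 called and a median of -0.11. The GTPase count was 0 when SS replicate 3 was dropped, 1 for SS replicates 1 and 2, and 3 to 4 when any other SA or SS sample was dropped, and the median stayed between -0.37 and -0.33.

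Other named falls cover signalling and metabolism. Rnd3, a protein that opposes cell contraction, had 9.18, 9.79, 9.61 and 9.83 in SA and 8.69, 8.7 and 8.72 in SS (-0.90 ± 0.14). Hs3st1, which makes the antithrombin-binding sites of heparan sulfate, had 9.35, 9.5, 9.3 and 9.22 against 8.54, 8.42 and 8.52 (-0.85 ± 0.09). In both, the SS samples were within 0.12 of each other. Ppp1r3c, which targets a phosphatase to glycogen, fell by 0.94, the RNA-binding protein Mex3b by 0.99 and the kinase Nuak1 by 0.79. Rasgrp1, a Ras activator of lymphocytes, fell by 0.78, at 1 of 4 probe sets. Falls of 0.81 to 0.99 were also seen in Ifi209, Armcx4, Ypel2, Shisa2, Arsj, Gpr34 and the histone gene H2bc18, whose probe set may read other copies of the histone H2B family. Gpr34 was dim, with means of 6.17 in SA and 5.36 in SS.

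Calls among these were lost without SS replicate 3 in Ppp1r3c, Mex3b, Nuak1, Rasgrp1, Ifi209, Shisa2, Gpr34 and H2bc18, with adjusted p-values over the alternatives of up to 0.0685, 0.135, 0.0526, 0.0676, 0.118, 0.0533, 0.108 and 0.197. Ppp1r3c, Mex3b, Ifi209, Gpr34 and H2bc18 also lost theirs without SS replicates 1 and 2. Mex3b and H2bc18 lost theirs without SA replicate 2 or SA replicate 3 as well, Gpr34 without SA replicate 1, and H2bc18 without SS replicate 4. Cass4, Gata3, Prdm8, Cxcr4, Hhex, Tox3, Myct1, Rnd3, Sox4, Armcx4, Ypel2, Hs3st1, Hlx, Arsj and Ifi47 kept their calls in every alternative run for them.

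Single members of further lists fell, where 1.04% of all genes were called lower. Bmp4, a growth factor of lung mesenchyme, fell by 0.59 ± 0.10 (1 of 24 TGF-beta and BMP genes), the Notch ligand Jag1 by 0.40 at all 3 of its probe sets (1 of 14 Notch genes) and Fgf18 by 0.45 (1 of 20 FGF genes). The aggrecanase Adamts5 fell by 0.63 ± 0.08, at 1 of 4 probe sets. At their brightest probe sets the related protease Adamts9 and Adamts5 thus moved in opposite directions. Of 11 DNA methylation genes 2 fell and 0 rose, Tet1, which oxidises methylcytosine, from 7.34, 7.24, 7.13 and 6.89 to 6.42, 6.4 and 6.47 (-0.72 ± 0.11), and the methyltransferase Dnmt3a by 0.37. Tet1 was called at 1 of 4 probe sets and Dnmt3a at 1 of 5, and with the mean of all probe sets of a gene this list had 0 calls. Its count was 1 without SA replicate 1, 2 or 3 or any SS sample.

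Markers of the resident cells of the lung held few genes that passed. Over all genes 1.91% were called, and at that share lists of this size would also hold few. Alveolar type 1, type 2, club, goblet and ciliated cell lists had 0 genes called and medians of -0.02, 0.02, 0.07, 0.06 and -0.04. Alveolar macrophages had 0 of 12 called and a median of 0.05, neutrophils 1 of 14 (Il1r2, 0.91 ± 0.16) with a median of 0.19, and T cells 0 of 13 with a median of -0.09. The fibroblast list had 2 of 16 lower, Tcf21 and Meox2 (-0.78), and a median of -0.07. Its count was 0 without SS replicate 3 and 1 without each other SA or SS sample except SA replicate 4. Cell cycle genes had 0 of 20 called and a median of -0.17. SA replicate 4 stood at 0.64 in their list mean and the other SA samples at -0.22 to -0.21, next to -0.21 to -0.14 in SS, and without SA replicate 4 the median was 0.05.

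**Figure D4:**
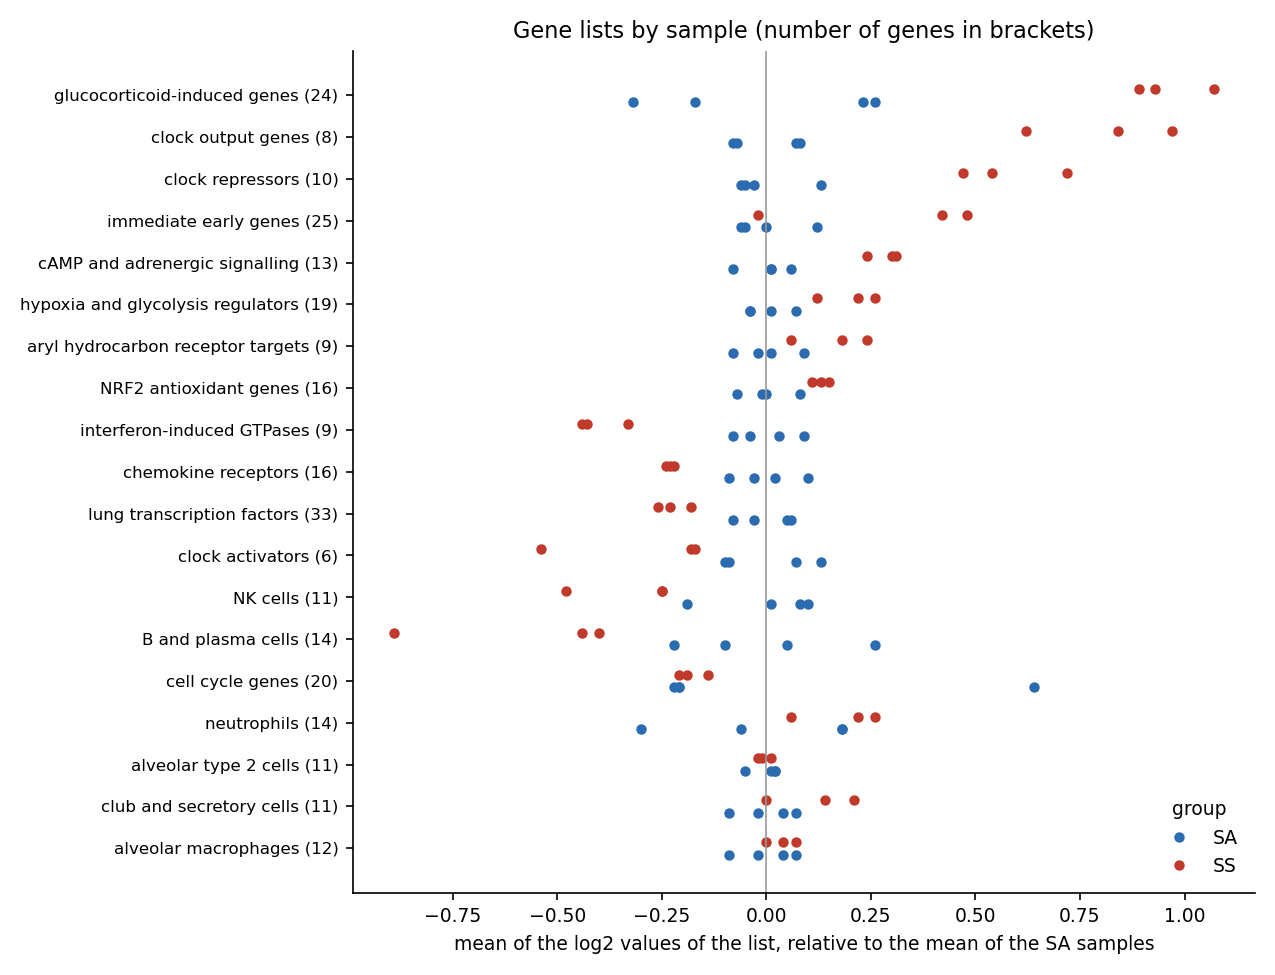
Mean log2 value of the genes of each list, relative to the mean of the SA samples, 1 point per sample (4 SA, 3 SS). Glucocorticoid-induced genes reach 0.89 to 1.07 in SS, B and plasma cell markers -0.89 to -0.40, alveolar type 2 markers stay within 0.05 of 0, and SA replicate 4 is apart at 0.64 in cell cycle genes.

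The difference between the adult effect after SHS in utero and the same effect after air in utero, (SS minus SA) minus (AS minus AA), was tested in the same fit. It was past the threshold in 21 of 18193 genes (0.115%), 6 with a more positive and 15 with a more negative difference in mice exposed in utero. Of these 21 genes, 15 were also called in SS minus SA. The 4 groups share no sample between the 2 effects.

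Creb5 had the largest positive difference, 1.68 ± 0.22 (limma, adjusted p = 0.00737). Its AA samples had 7.25, 7.58, 7.25 and 7.04 and its AS samples 7.06, 6.87 and 6.87, so the SS values of 8.27 to 8.93 were above every sample of the other 3 groups. Klf10, a TGF-beta-induced factor, had means of 9.61 in AA and 8.84 in AS, and of 9.58 in SA and 10.12 in SS (1.31 ± 0.20, adjusted p = 0.017 by limma). Its difference in SS minus SA alone, 0.54, did not pass. Dusp16, a phosphatase of stress kinases, stood between 10.49 and 10.84 in all 11 samples of AA, AS and SA and at 11.44, 11.41 and 11.34 in SS (0.74 ± 0.12). Ampd3, an AMP deaminase (0.82 ± 0.12), the prolyl isomerase Fkbp14 (0.87 ± 0.16) and the semaphorin receptor Plxna2 (0.78 ± 0.14) had the same form, with SS above every sample of the other groups. In SS minus SA, Dusp16 and Fkbp14 were called at 1 of 2 probe sets and Plxna2 at 1 of 4.

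Among the negative differences, 5 named genes had little difference between AA and AS and a fall from SA to SS. Cxcr4 had 10.68, 10.75, 10.53 and 10.44 in AA and 10.81, 10.68 and 10.45 in AS, all above the SS values of 9.71 to 9.91 (-1.11 ± 0.16, limma, adjusted p = 0.0142). Prdm8 had AA and AS means of 6.76 and 6.74 (-1.2 ± 0.18), Hhex 9.26 and 9.22 (-1.03 ± 0.17), Tox3 9.67 and 9.61 (-0.94 ± 0.16) and Hs3st1 9.02 and 9.08 (-0.91 ± 0.13). In each of them the SS values were the lowest of the 4 groups, and the SA mean was the highest. Gata3 had -1.16 ± 0.22 and did not pass (limma, adjusted p = 0.055).

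In the other 5 named genes levels were higher in AS than in AA, with no such difference from SA to SS. Ppp1r15a (GADD34), which ends the integrated stress response, had means of 9.2 in AA and 10.33 in AS and values of 9.02, 8.85, 9.09 and 8.98 in SA and 9.16, 9.31 and 8.96 in SS (-0.97 ± 0.13, adjusted p = 0.00822 by limma). Klf2, the flow-sensitive factor of endothelium, had 13.01, 13.03 and 13.19 in AS against 11.65 to 12.3 in the 11 other samples (-1.05 ± 0.18). C2cd4b, a gene induced in endothelium by inflammatory cytokines, had 9.32, 9.29 and 9.03 in AS and 7.81 to 8.49 elsewhere (-0.98 ± 0.13). The stress kinase Plk2 had means of 10.89 in AA and 11.91 in AS and stood at 10.82 in SA and 10.43 in SS (-1.42 ± 0.24). Hlx had 9.34 in AA, 9.9 in AS, 9.71 in SA and 8.87 in SS, so it was higher with adult SHS after air and lower with it after SHS in utero (-1.41 ± 0.19).

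The remaining 5 genes past the threshold, chosen here after their values were seen, were Zfp608 (-0.85), Nrros (-0.88), Stk4 (-0.70), the ERK phosphatase Dusp6 (-0.66) and the cell cycle inhibitor Cdkn2c (-0.48). The count of 21 fell to 9 when SS replicate 4 was dropped, to 11 for SS replicates 1 and 2 or AS replicate 2, to 12 for SS replicate 3 or SA replicate 2 and to 13 for SA replicate 3. It rose to 40 when the averaged AS replicates 3 and 4 were dropped. Creb5, Hlx and C2cd4b kept their calls for this difference in every alternative run, and each of the other 13 named genes lost it in at least 1, with adjusted p-values of up to 0.132. That bound belongs to Klf2, and the losses came without SS replicates 1 and 2 in Cxcr4, Hhex, Tox3, Klf10, Fkbp14, Plxna2, Dusp16, Plk2 and Klf2.

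**Figure D5:**
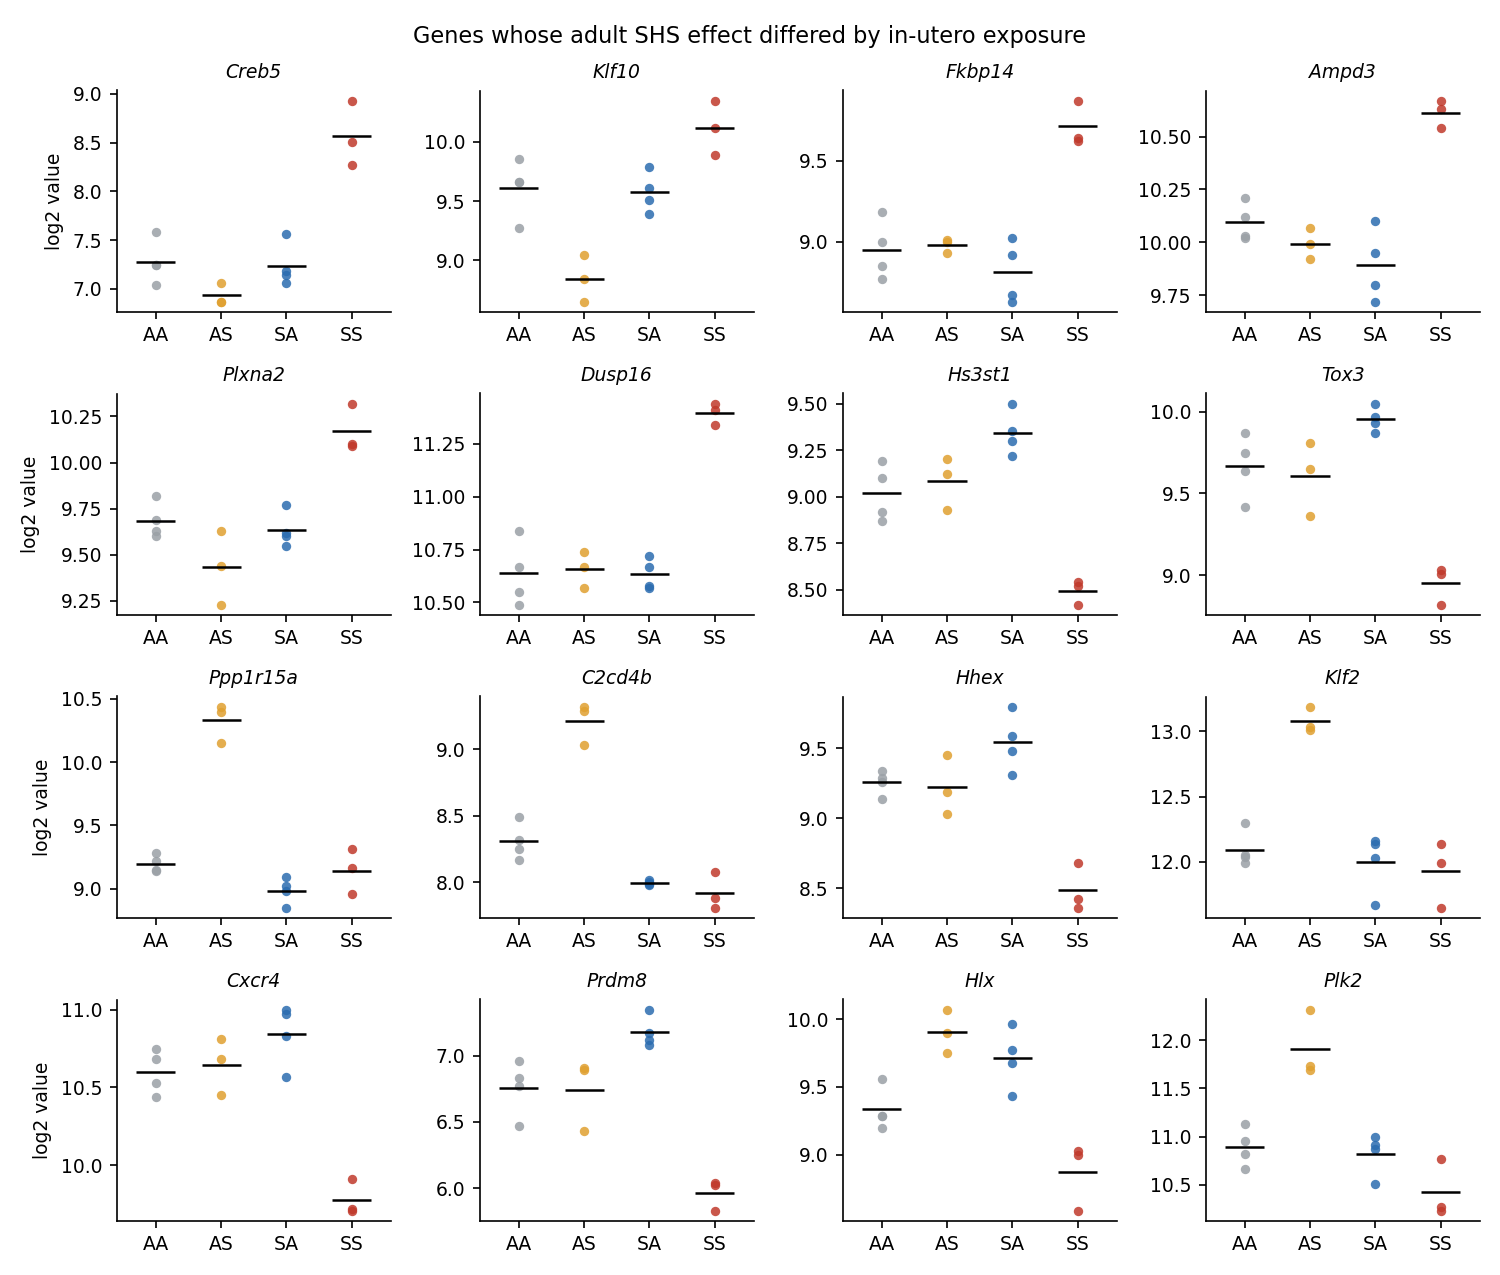
Log2 values of the 16 named genes whose adult SHS effect differed by in-utero exposure, 1 point per sample in the groups AA, AS, SA and SS, with lines at the group means (each panel has its own y axis, which does not start at 0). Creb5 and Dusp16 are high in SS alone, Cxcr4 and Prdm8 are low in SS alone, and Ppp1r15a, C2cd4b and Klf2 are high in AS alone.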

How the data were processed

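Left lung RNA of male mice was read on 16 Affymetrix mouse expression arrays. The authors deposited 1 normalized log2 value per probe set and array; how background and arrays were corrected is not stated in any source used here. Per the submitters' processing notes the tool was limma, without a version. No raw intensities were used. The number of arrays sets the precision.

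Of 45101 probe sets, 64 controls were left out. Gene symbols came from the platform annotation, with Entrez identifiers updated to a later RefSeq table: 34945 probe sets had 1 symbol, 932 several and 9160 none. A gene was read at the probe set with 1 symbol and the highest mean over the 14 samples. Promoters came from RefSeq on GRCm38.p6.

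A mean per group was fitted to 14 samples by lmFit and eBayes of limma 3.58.1 (R 4.3.3), with 10 residual degrees of freedom. Tests were two-sided, with Benjamini-Hochberg adjustment over 45037 probe sets within a contrast and a threshold of 0.05. Errors after ± are standard errors of the fit. The fit was tested on simulated data. Named genes are the 25 largest rises and 25 largest falls past the threshold with no overlap between SA and SS samples, members of the described lists past the threshold and up to 2 that did not pass, and up to 10 genes in each direction for the difference of the adult effects. Further members that did not pass were chosen after their values were seen, to show the rest of a pathway. A list is described by its counts and median, with no test. The comparison and the 67 lists (864 of 934 genes matched) were chosen with earlier results of these data known. Alternatives covered the samples in the fit, averaging, normalization, weights, filters, a replicate block and each sample left out. The labels call the replicates biological and tie none to an animal or litter.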

Additional observations from a re-analysis of the deposited data

Results flagged for a closer look

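In the 4 SA samples, 11 of 126 tested sets of values (59 genes and 67 lists) held 1 sample apart from the others, relative to their range. Chance sets 1 apart in about 1 in 20 independent sets. These sets share samples and genes, so the count cannot be read against that rate. List means were rounded to 2 decimals, and some of the gaps were small on the log2 scale. SA replicate 1 was low in Cass4 (8.22) and SA replicate 4 in Shisa2 (7.32). Relative to the SA mean, SA replicate 4 was high in the list means of cell cycle genes (0.64), matrix genes (0.31), smooth muscle markers (0.22), angiogenic genes (0.07) and eicosanoid genes (0.06), and low in enzymes for foreign compounds (-0.05). SA replicate 3 was high in clock repressors (0.13) and low in vein markers (-0.1), and SA replicate 2 was low in alveolar type 2 markers (-0.05).

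The adult SHS effect after SHS in utero minus that after air in utero passed the test of the difference (limma, adjusted p under 0.05) in 16 named genes. It was positive in Creb5 (1.68), Klf10 (1.31), Fkbp14 (0.87), Ampd3 (0.82), Plxna2 (0.78) and Dusp16 (0.74). It was negative in Plk2 (-1.42), Hlx (-1.41), Prdm8 (-1.2), Cxcr4 (-1.11), Klf2 (-1.05), Hhex (-1.03), C2cd4b (-0.98), Ppp1r15a (-0.97), Tox3 (-0.94) and Hs3st1 (-0.91). No cause of any of these was tested.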

How the results depend on the processing

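None of the 50 named rises and falls reversed in the 27 alternatives, 28 kept their call in all of them, and 1259 of 1346 named values stayed on their side of the threshold. Klf2, which was not called in SS minus SA (-0.07), ran from -0.18 without SA replicate 4 to 0.07 without SS replicate 4, a change of sign. Counts moved more. Counting all 16 arrays separately gave 1345 probe sets (593 higher, 752 lower), 629 genes (249 and 380) and 90 genes for the difference of the adult effects. Keeping only SS replicate 2 and AS replicate 4 of the near-identical pairs gave 390 probe sets (201 and 189) and 185 genes (95 and 90). Array weights gave 2154 probe sets (983 and 1171), 1000 genes (400 and 600) and 82 for the difference, and a robust intensity trend gave 35 for the difference. Dropping SA replicate 4 and the averaged AS replicates 3 and 4 together, chosen after seeing the data, gave 1299 probe sets (558 and 741), 610 genes (386 lower) and 47 for the difference. With a replicate block the counts were 470 probe sets (239 and 231), 205 genes (106 and 99), 197 of them among the 348, and 14 for the difference. Deviations from the group means, over all probe sets, had correlations of -0.053 to 0.073 between same-numbered SA and SS arrays. Differently numbered SA and SS arrays had -0.11 to 0.12. No pairing by number was seen in this measure, and shared litters or batches were not tested. Further quantile normalization gave 169 genes higher and 159 lower, and centring on the median 170 and 157. With 1 sample left out in turn, probe sets ran from 171 to 1014 (higher 78 to 454, lower 93 to 560), genes from 76 to 477 (higher 34 to 196, lower 42 to 281) and the difference from 9 to 40. The low end of the gene counts came without SS replicate 3 and the high end without the averaged AS replicates 3 and 4. The fit of SA and SS alone gave 399 genes and cannot give the difference. The cause of these shifts was not tested. With 3 SS samples, the number of arrays limits what can be called, and no litter, hour or batch could be entered.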
